A study of Mus musculus with 6 samples.

Results

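The Wnt genes described here are the mouse genes for Wnt ligands, Frizzled receptors, secreted Wnt antagonists, R-spondins and the Lgr receptors that bind them, Wnt co-receptors, and the beta-catenin, Axin and TCF/LEF components of the cell. They were chosen by symbol among protein-coding genes of the GENCODE M21 annotation, by a rule that uses no measured value but was written with earlier results of these data known, which gave 56 of the 57132 gene identifiers in the count table. They comprise 19 Wnt ligands, 10 Frizzled receptors, 9 secreted antagonists (Sfrp, Dkk and Wif1), 6 R-spondins and Lgr receptors, 5 co-receptors (Lrp5, Lrp6, Ror1, Ror2 and Ryk) and 7 cytoplasmic and nuclear components.

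RNA from 3 samples of immortalized wild-type (WT) podocytes, genotype WT-Col4a3+/+, and 3 samples of immortalized Alport syndrome (AS) podocytes, genotype AS - Col4a3-/-, was sequenced to characterize both lines. Podocytes are the epithelial cells that cover the outer face of the glomerular capillary, and Alport syndrome is an inherited disease of the type IV collagen network in the glomerular basement membrane, of which Col4a3 encodes 1 chain. Both lines came from male mice 8 weeks of age that carried the H-2Kb-tsA58 transgene, a temperature-sensitive large T antigen under an interferon-inducible promoter, so that control and knockout cells alike were immortalized by it. No treatment was given. Per the sample records, both lines were grown at 33 °C with 20 U/mL interferon gamma and differentiated for 14 days at 37 °C, whereas the study's methods give another medium, interferon dose and number of days. Each genotype was 1 cell line, so genotype and cell line cannot be told apart in these data. Whether samples numbered 1 to 3 were separate cultures is not stated, and p-values then measure only the spread between these samples.

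Wnt proteins are secreted lipid-modified ligands that bind Frizzled receptors. With Lrp5 or Lrp6 as co-receptor they protect beta-catenin from the destruction complex built on Axin and Apc, and beta-catenin then activates genes together with TCF/LEF factors, whereas Ror2, Ryk and the planar cell polarity proteins carry signals that do not need beta-catenin. Sfrp and Wif1 proteins bind the ligands, Dkk1 and Dkk2 bind Lrp5 and Lrp6, and R-spondins acting through Lgr receptors keep Frizzled proteins at the cell surface. In the kidney, Wnt4 and Wnt9b are required for nephron formation, and beta-catenin activity in podocytes has been linked to glomerular injury.

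Values are given as CPM, which are counts scaled to a common total with TMM library sizes (edgeR's cpm), for samples 1, 2 and 3 of each line in that order. Library totals ran from 45417221 to 54290968 counts. Col4a3 read 938, 1052 and 1272 CPM in WT podocytes and 62.4, 61.2 and 82.9 CPM in AS podocytes, so the labels matched the targeted gene. The sample labelled WT replicate 1 stood apart from the others of its line: the chi-square statistic per degree of freedom over all genes was 47.2 and 49.5 against the other WT samples, 9.73 between those, and 18.6 to 22.2 among AS samples. Of 16 podocyte markers, 13 were tested, of which 7 were lower in AS podocytes (Wt1, from 20.6 to 2.50 CPM, with Nphs1, Synpo, Podxl, Cd2ap, Actn4 and Plce1) and 4 were higher (Lmx1b, Foxc2 and Cdkn1c among them), while the defining marker Tcf21 had no counts in either line. Nphs1 had 67 counts in WT and 6 in AS podocytes. It passed the filter on low counts only through WT podocytes, so it had to differ. The summed podocyte markers ranged from 2213 to 2531 CPM in WT and from 1776 to 1909 CPM in AS samples. Most of this sum came from Actn4, Synpo and Kirrel, the last of which was not called. Their mean CPM were 810, 803 and 480 for the WT line and 677, 526 and 419 for the AS line. The sum therefore says little about the less abundant podocyte markers. Of 6 parietal epithelial cell markers 1 was higher and 3 were lower, with sums of 841 to 885 CPM in WT and 614 to 652 CPM in AS samples. Of 6 mesangial markers 5 were tested and 1, Pdgfrb, was lower, with sums of 5751 to 7903 CPM in WT and 6419 to 7545 CPM in AS samples that were mostly Acta2, and Ren1 was near 0. Proximal tubule markers, of which 1 of 4 tested was lower, summed to 377 to 424 CPM in WT and 281 to 392 CPM in AS samples, mostly Lrp2 and Aqp1, with Slc34a1 near 0. Endothelial markers (sums of 3.23 to 4.87 CPM in WT and 1.29 to 2.37 CPM in AS samples, with both tested members lower), leukocyte markers (1.54 to 3.14 and 1.85 to 2.78 CPM, neither tested member called by edgeR's quasi-likelihood test, DESeq2 or limma-voom, 0 at an unadjusted p under 0.05) and collecting duct markers (at most 0.0584 CPM) were low, with the endothelial counts mostly on Flt1 (3.05 CPM in WT) and the leukocyte counts mostly on Cd68. Of all genes tested, 40.1% were called higher or lower. The share was 84.6% of the podocyte (Nphs1 included), 66.7% of the parietal, 20% of the mesangial and 25% of the proximal tubule markers tested. The part of these markers in the differences given here was not tested, and in bulk RNA fewer cells of a type and less RNA per cell cannot be told apart.

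Among the 56 Wnt genes, 18 rose and 9 fell in AS podocytes. A gene was called where its Benjamini-Hochberg adjusted p over all genes tested was under 0.05 by the quasi-likelihood test of edgeR. In addition, 17 were tested and not called, 10 had counts but too few to be tested, and 2 (Dkk4 and Rspo4) had no count in any sample. Over all 16263 genes tested, 40.1% were called, 20.4% as higher and 19.6% as lower in AS podocytes, while of the 44 Wnt genes tested 61.4% were called, 40.9% as higher and 20.5% as lower. The CPM of the WT and AS samples did not overlap in 31 of the 44, 21 with AS above WT and 10 below, where 52.3% of all genes tested did not overlap. With a fold change over 2 in addition, 7 Wnt genes were higher and 5 were lower, where 11.2% of all genes passed. The median log2 fold change (AS over WT) was 0.19 in the tested Wnt genes and 0.0061 over all genes, and the median absolute log2 fold change was 0.63 and 0.28. These counts describe the list. A gene that passed the filter on low counts only through the line in which it is high had to differ. This held for Ror2 (through AS) and Wnt10b (through WT), and without these 17 Wnt genes were higher and 8 were lower. Ror2 and Wnt10b are also among the 7 and 5 genes with a fold change over 2, and in the shares, overlap counts and medians above. Their values are therefore given as a description, with no p. Without WT replicate 1, 19 Wnt genes were higher and 11 were lower.

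**Figure D1:**
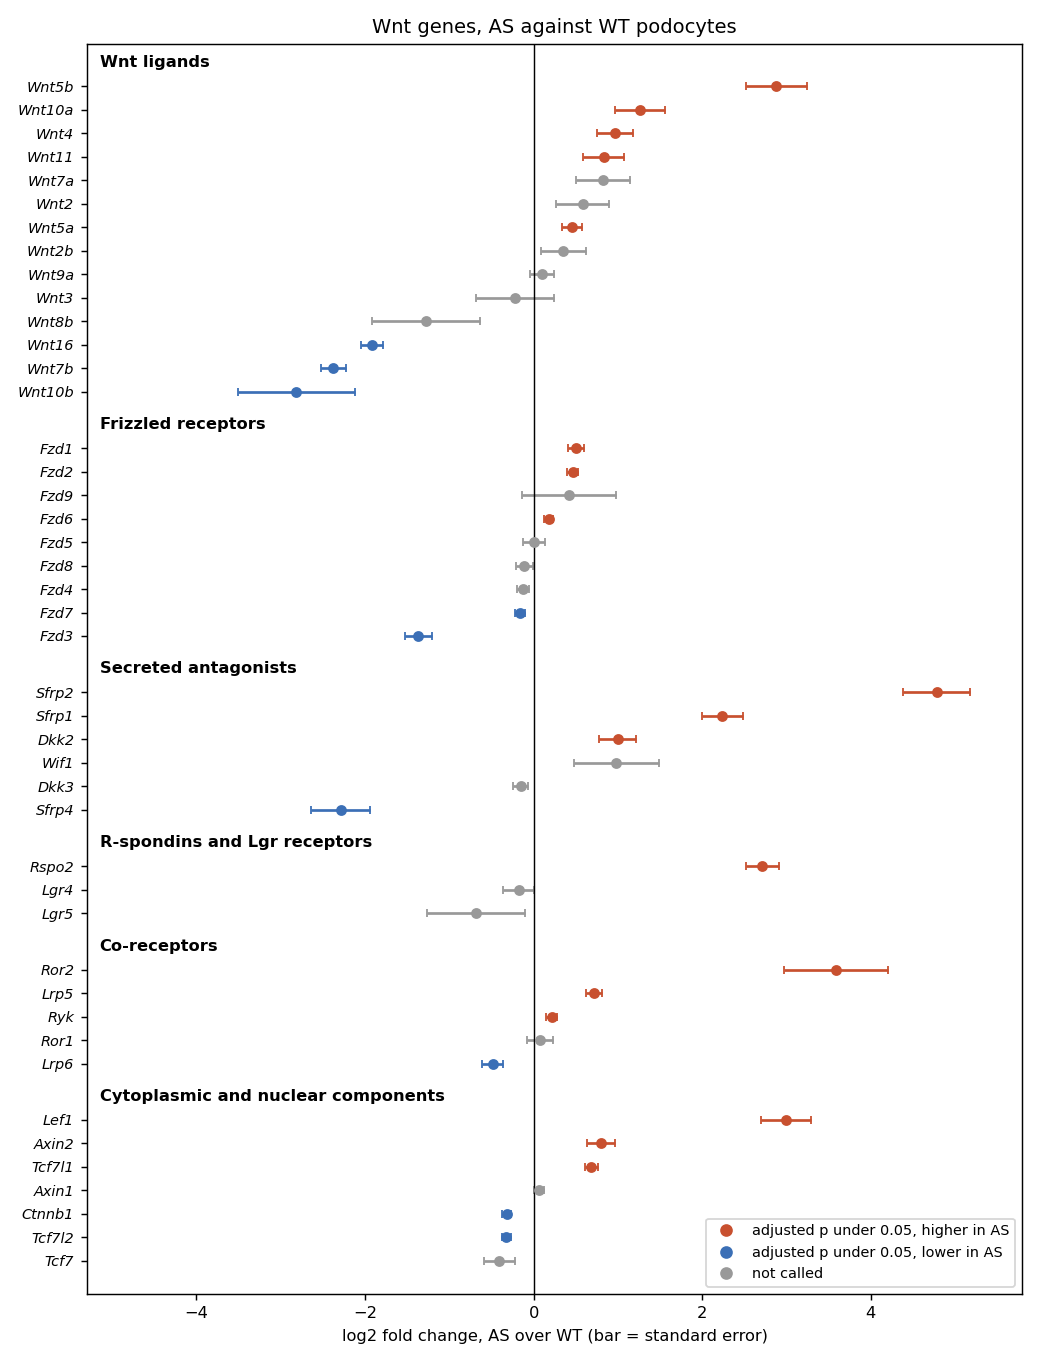
Log2 fold change (AS over WT) of the 44 Wnt genes tested, by class, with the standard error as a bar; 18 genes were called higher (red), 9 lower (blue) and 17 were not called (grey). Sfrp2, at 4.78, lay farthest to the right and Wnt10b, at -2.81, farthest to the left.

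Promoter sequences are shown for the called genes with the largest fitted change in each direction (Sfrp2 and, from few counts, Wnt10b) and for Axin2 and Lef1, which are known targets of beta-catenin, to set the changes beside the DNA before each start site. Each is the 250 bases before an annotated RefSeq start on build GRCm38.p6, read 5′ to 3′ on the gene's strand. Both strands were searched for CTTTGAA and CTTTGAT, a core motif of TCF/LEF factors, and a match is in capitals. None of the following 4 windows held a match, nor did the other annotated windows of Lef1. Sfrp2 is shown at chr3:83766071-83766320 (plus strand), Wnt10b at chr15:98778151-98778400 (minus strand), Axin2 at chr11:108920099-108920348 (plus strand) and Lef1 at chr3:131110047-131110296 (plus strand).
Sfrp2: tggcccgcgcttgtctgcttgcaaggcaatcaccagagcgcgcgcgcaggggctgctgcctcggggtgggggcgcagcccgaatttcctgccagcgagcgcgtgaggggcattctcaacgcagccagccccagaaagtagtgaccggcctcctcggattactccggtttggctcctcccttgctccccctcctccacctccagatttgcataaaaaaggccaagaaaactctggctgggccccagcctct
Wnt10b: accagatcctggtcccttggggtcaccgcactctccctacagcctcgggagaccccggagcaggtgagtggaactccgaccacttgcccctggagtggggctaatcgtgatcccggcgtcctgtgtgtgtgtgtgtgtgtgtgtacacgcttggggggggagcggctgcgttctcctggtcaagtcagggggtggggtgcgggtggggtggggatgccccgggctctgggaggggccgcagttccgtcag
Axin2: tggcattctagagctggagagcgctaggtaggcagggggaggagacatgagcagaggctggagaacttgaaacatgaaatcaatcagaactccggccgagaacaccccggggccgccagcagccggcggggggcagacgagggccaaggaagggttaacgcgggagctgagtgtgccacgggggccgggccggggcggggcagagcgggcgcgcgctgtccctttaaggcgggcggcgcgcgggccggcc
Lef1: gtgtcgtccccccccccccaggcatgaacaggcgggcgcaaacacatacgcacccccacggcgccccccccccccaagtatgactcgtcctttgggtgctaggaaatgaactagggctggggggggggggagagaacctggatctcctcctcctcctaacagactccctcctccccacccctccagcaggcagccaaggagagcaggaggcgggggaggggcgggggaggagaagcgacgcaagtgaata

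Of the 56 genes, 38 had a window in the table, and 3 of them held a match (7.895%), where 8.633% of 27025 genes with a window did. The matches were in Dkk1, Wnt11 and Wnt5b. The windows of Wnt11 and Wnt5b are shown because they hold a match and both genes were called. The match in Wnt11, at chr7:98834862-98835111 (plus strand), lay at position -51 from the start and on the opposite strand, so it reads ATCAAAG here. In Wnt5b, the matching window was the most downstream of 3, at chr6:119449387-119449636 (minus strand), with the match at position -71.
Wnt11: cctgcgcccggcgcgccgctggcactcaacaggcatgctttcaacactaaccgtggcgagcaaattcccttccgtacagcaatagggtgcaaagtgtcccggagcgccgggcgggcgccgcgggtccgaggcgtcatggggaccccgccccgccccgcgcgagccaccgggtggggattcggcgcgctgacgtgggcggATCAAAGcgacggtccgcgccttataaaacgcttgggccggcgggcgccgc
Wnt5b: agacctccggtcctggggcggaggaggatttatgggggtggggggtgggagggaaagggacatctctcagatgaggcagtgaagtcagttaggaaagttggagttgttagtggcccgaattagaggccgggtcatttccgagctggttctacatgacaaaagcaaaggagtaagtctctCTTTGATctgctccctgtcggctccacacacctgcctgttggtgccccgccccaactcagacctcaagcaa
The 38 genes, all protein-coding, had a median of 24 CpG dinucleotides in the most upstream window. Over all 27025 genes with a window, which were not selected by gene type or expression, the median was 6. It was 24 in 11 higher, 17 in 5 lower and 25 in 13 uncalled Wnt genes. A match is a description of the letters, and the windows say nothing of sites farther away.

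Wnt16 was the most abundant ligand in both lines and fell in AS podocytes, together with Wnt7b, while Wnt5a, Wnt4, Wnt5b, Wnt10a and Wnt11 rose. Wnt10b had too few counts in AS podocytes to reach the filter there. Of the 19 ligands 14 were tested, and their median log2 fold change was 0.40. Wnt16 is a ligand best known from bone and from blood stem cell formation. It read 970, 726 and 698 CPM in the WT samples and 224, 186 and 225 CPM in the AS samples. The lines did not overlap, and the highest value was in WT replicate 1. Wnt16 was 3.77-fold lower in AS podocytes (log2 fold change -1.91 ± 0.13 SE, edgeR adjusted p = 5.66e-06).

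Wnt7b, a ligand that signals through beta-catenin and takes part in the growth of the renal medulla, read 40.8, 52.0 and 59.8 CPM in the WT samples and 8.24, 10.3 and 10.7 CPM in the AS samples. It was 5.20-fold lower (log2 fold change -2.38 ± 0.15 SE, edgeR adjusted p = 2.96e-06). Every AS sample lay well under every WT sample, and here the lowest WT value was in replicate 1. The antisense RNA AU022754 overlaps 324 bases of its exons with 111 counts in WT and 42 in AS podocytes, and whether the counting used strand is not given. Wnt10b, a ligand known for holding back fat cell formation, had 88 counts over the WT samples and 13 over the AS samples, with means of 0.619 ± 0.229 and 0.0855 ± 0.0760 CPM (SD, n = 3). The fitted value was 7.03-fold lower (log2 fold change -2.81 ± 0.70 SE), and single samples moved it, to 11.2-fold without AS replicate 3 and 4.73-fold without AS replicate 2. All AS samples lay under the level of the filter, so the gene was tested only because it is high in WT podocytes.

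Wnt5a, the main ligand of the branches that do not need beta-catenin, read 71.0, 94.5 and 106 CPM in the WT samples and 123, 126 and 123 CPM in the AS samples. All AS samples were above all WT samples, and they lay close together. Wnt5a was 1.37-fold higher (log2 fold change 0.45 ± 0.12 SE, edgeR adjusted p = 0.0141). Wnt5b, its closest relative, read 0.769, 0.577 and 0.217 CPM in the WT samples and 4.37, 3.00 and 4.29 CPM in the AS samples. The lines were far apart on a low level, with 76 counts in WT and 587 in AS podocytes. Wnt5b was 7.37-fold higher, the largest increase among the ligands (log2 fold change 2.88 ± 0.36 SE, edgeR adjusted p = 0.000241).

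Wnt4, which drives the epithelial transition of the nephron precursors, read 3.98, 7.52 and 4.59 CPM in the WT samples and 11.1, 9.47 and 10.9 CPM in the AS samples. It was 1.96-fold higher (log2 fold change 0.97 ± 0.21 SE, edgeR adjusted p = 0.00586). The gap between the lines was narrow, since WT replicate 2 lay close to AS replicate 2. Wnt10a, a ligand of skin and tooth development, read 0.868, 0.726 and 0.867 CPM in the WT samples and 2.29, 1.23 and 2.42 CPM in the AS samples. Wnt10a was 2.40-fold higher (log2 fold change 1.26 ± 0.30 SE, edgeR adjusted p = 0.00827), with AS replicate 2 near the WT samples. Wnt11, which takes part in the branching of the ureteric bud, read 0.927, 1.32 and 0.845 CPM in the WT samples and 1.93, 1.75 and 1.84 CPM in the AS samples. The AS samples lay together above the WT samples. Wnt11 was 1.78-fold higher (log2 fold change 0.83 ± 0.24 SE, edgeR adjusted p = 0.0218), but it lost the call without WT replicate 1, WT replicate 3, AS replicate 1 or AS replicate 3 (adjusted p from 0.0524 to 0.0750).

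The other 6 ligands tested were not called. Wnt9a, the second most abundant per length, read 52.0, 81.5 and 78.1 CPM in the WT samples and 74.7, 78.5 and 73.4 CPM in the AS samples, and the lines overlapped. Wnt2, Wnt2b, Wnt3, Wnt7a and Wnt8b had mean CPM between 0.138 and 2.30, with log2 fold changes from -1.28 (Wnt8b) to 0.83 (Wnt7a). Wnt7a was called without WT replicate 2 (edgeR adjusted p = 0.0351) and with the chromosome median removed (adjusted p = 0.0331), and Wnt8b without WT replicate 1 (adjusted p = 0.0440). Wnt6, Wnt3a, Wnt9b, Wnt1 and Wnt8a had counts but were not tested. Wnt3a, the ligand most used to activate beta-catenin in culture, had 6 counts in WT and 35 in AS podocytes, and Wnt9b had 2 and 3.

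**Figure D2:**
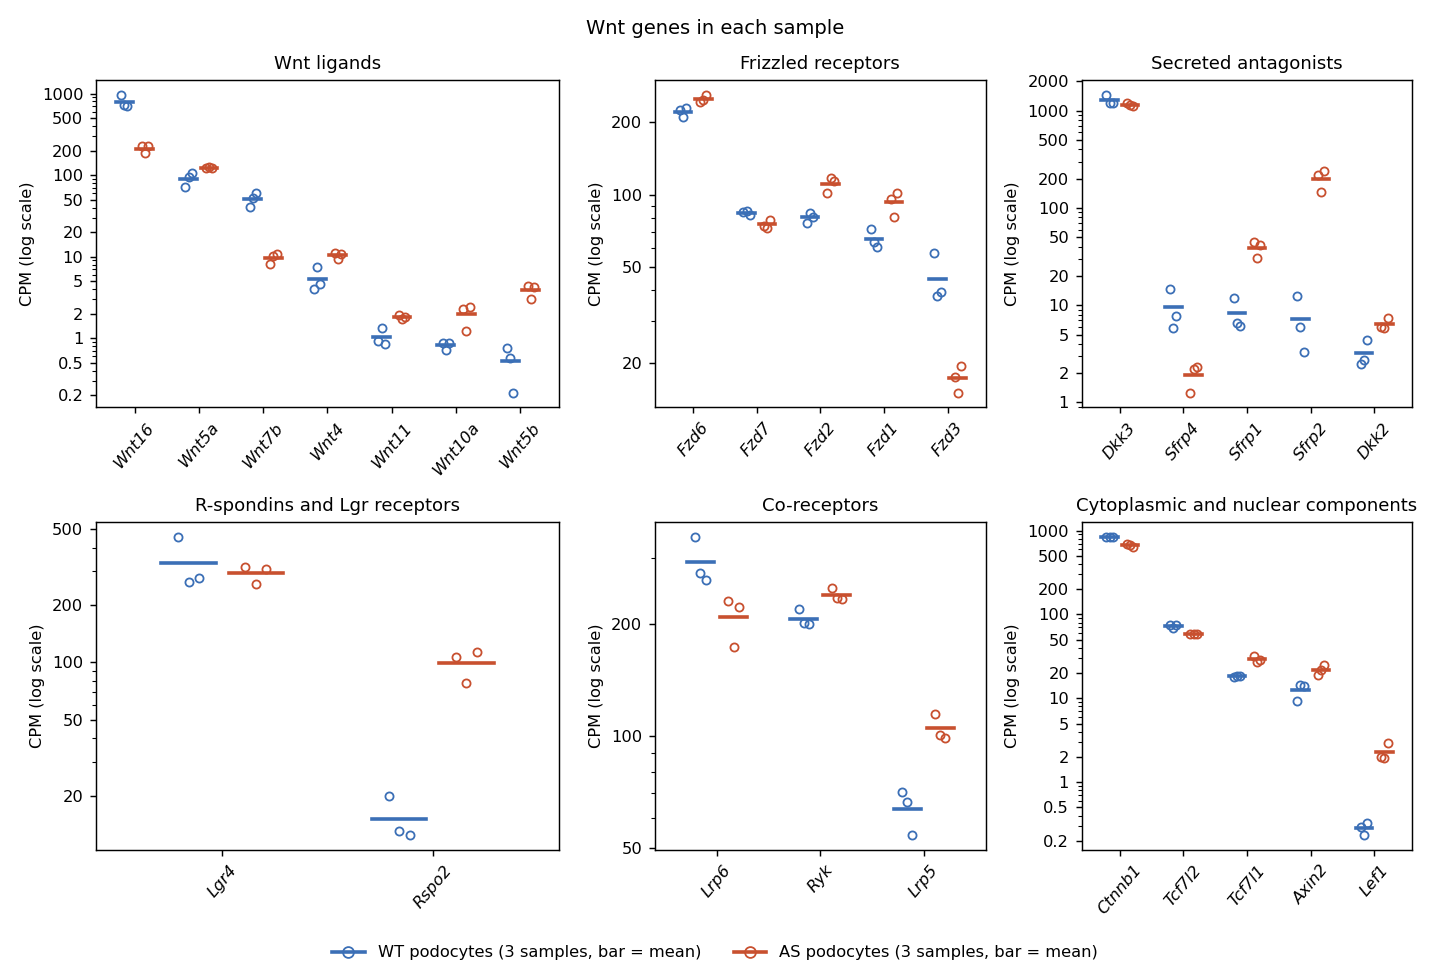
CPM (log scale) of 27 Wnt genes in each of the 3 WT (blue) and 3 AS (red) samples, with the group mean as a bar, in 6 panels by class. Wnt16 sat at 698 to 970 CPM in WT and 186 to 225 CPM in AS samples, and Sfrp2 at 3.27 to 12.4 CPM in WT and 146 to 239 CPM in AS samples.

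Levels of different genes were compared as CPM per kilobase of exon. On that scale the 19 ligands summed to 230 ± 25.0 in the WT line and 96.4 ± 4.80 in the AS line (SD, n = 3). Wnt16 made up 79.2% ± 5.96 of the sum in WT and 50.3% ± 2.89 in AS podocytes. Wnt9a, whose level was not called, made up 9.42% ± 2.94 and 23.6% ± 2.04, and Wnt5a 5.14% ± 1.47 and 16.5% ± 1.08. Wnt7b made up 4.61% ± 1.27 and 2.07% ± 0.328. The shares of these 4 ligands did not overlap between the lines, and no test of shares was made.

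Frizzled receptors, to which the ligands bind, were called in 5 cases: 3 rose and 2 fell, and only Fzd3 by more than 2-fold. Calls made up 55.6% of the receptors tested, with 33.3% higher and 22.2% lower. Among all genes tested these shares were 40.1%, 20.4% and 19.6%. With so few receptors, the shares are no result about the class. Of the 10 receptors 9 were tested, and their median absolute log2 fold change was 0.18, where that over all genes was 0.28. Fzd3, which acts in axon guidance and planar cell polarity, read 57.0, 37.9 and 39.6 CPM in the WT samples and 17.6, 15.1 and 19.4 CPM in the AS samples. It was 2.58-fold lower (log2 fold change -1.37 ± 0.16 SE, edgeR adjusted p = 0.000143). All AS samples were below all WT samples, and WT replicate 1 was highest.

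Fzd1 and Fzd2 are closely related receptors that both rose. Fzd2 read 76.5, 84.0 and 80.6 CPM in the WT samples and 102, 117 and 114 CPM in the AS samples. Fzd1 read 72.3, 63.5 and 60.7 CPM in the WT samples and 96.1, 81.1 and 102 CPM in the AS samples. In both genes every AS sample was above every WT sample. Fzd2 was 1.38-fold higher (log2 fold change 0.46 ± 0.07 SE, edgeR adjusted p = 0.000541) and Fzd1 1.42-fold higher (0.50 ± 0.09 SE, adjusted p = 0.00232).

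Fzd6 and Fzd7 differed by little. Fzd6, the most abundant receptor per length and a planar cell polarity receptor, read 224, 210 and 229 CPM in the WT samples and 242, 247 and 260 CPM in the AS samples. Its log2 fold change was 0.18 ± 0.06 SE (edgeR adjusted p = 0.0383), and it was -0.01 (adjusted p = 0.890) once the median of its chromosome 15 was removed. It also lost the call when any sample other than WT replicate 1 was left out (adjusted p from 0.0547 to 0.142). Genes of chromosome 15 as a whole lay 0.19 above the median of all genes. Fzd7, which with Fzd1 and Fzd2 forms a subfamily, read 84.4, 85.9 and 82.3 CPM in the WT samples and 74.3, 72.6 and 78.7 CPM in the AS samples. The lines did not overlap in either gene, but the gaps were small. The log2 fold change of Fzd7 was -0.16 ± 0.05 SE (edgeR adjusted p = 0.0392). It lost the call under 7 alternatives, among them library size only (adjusted p = 0.0859) and leaving out WT replicate 2 or 3 or AS replicate 1 or 2.

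Fzd4, Fzd5, Fzd8 and Fzd9 were tested and not called, with log2 fold changes from -0.12 to 0.42, and Fzd10 was not tested (25 and 18 counts). Fzd8 was called lower without WT replicate 1 (log2 fold change -0.22, edgeR adjusted p = 0.0314). Per kilobase of exon, the 10 receptors summed to 153 ± 5.01 CPM in WT against 168 ± 3.35 CPM in AS podocytes (SD, n = 3). Fzd6 made up 29.9% ± 1.47 and 30.9% ± 0.746 of this sum. In WT podocytes Fzd4 (24.7 CPM per kilobase), Fzd2 (21.9), Fzd7 (18.6), Fzd1 (15.6), Fzd5 (14.1), Fzd8 (9.0) and Fzd3 (3.50) followed. The ranges of Fzd1 and Fzd5 overlapped in that line. The order of the means in AS podocytes was Fzd6, Fzd2, Fzd4, Fzd1, Fzd7, Fzd5, Fzd8 and Fzd3. Fzd2 was above Fzd4 and Fzd1 above Fzd7 in every AS sample. The ranges of Fzd4 and Fzd1 overlapped in the AS line, as did those of Fzd7 and Fzd5.

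Secreted antagonists held the largest change of any Wnt gene tested: Sfrp2 and Sfrp1 rose with Dkk2, and Sfrp4 fell. Of the 9 antagonists 6 were tested. Sfrp proteins carry a Frizzled-like domain that binds Wnt ligands. Sfrp2, whose promoter is shown above, read 12.4, 6.0 and 3.27 CPM in the WT samples and 216, 146 and 239 CPM in the AS samples. Every AS sample was far above every WT sample, and the WT samples were spread widely, with replicate 1 highest. Sfrp2 was 27.5-fold higher (log2 fold change 4.78 ± 0.40 SE, edgeR adjusted p = 1.80e-05), and it was 43.1-fold higher without WT replicate 1 and 21.7-fold without WT replicate 3. The antisense RNA Gm26771 overlaps 347 bases of its exons and had 5 counts in WT and 114 in AS podocytes, where Sfrp2 had 1061 and 30415.

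Sfrp1, on chromosome 8, read 12.0, 6.56 and 6.18 CPM in the WT samples and 45, 30.7 and 41.7 CPM in the AS samples. It was 4.73-fold higher (log2 fold change 2.24 ± 0.24 SE, edgeR adjusted p = 9.40e-05). Genes of chromosome 8 as a whole lay 0.31 above the median of all genes. Sfrp4, which is known as a phosphate-regulating factor as well, went the other way. It read 14.7, 5.90 and 7.80 CPM in the WT samples and 1.27, 2.22 and 2.31 CPM in the AS samples, so that the lines did not overlap. Sfrp4 was 4.88-fold lower (log2 fold change -2.29 ± 0.35 SE, edgeR adjusted p = 0.000794).

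Per kilobase of exon, the genes with an Sfrp symbol summed to 7.51 ± 3.95 CPM in WT against 103 ± 23.9 CPM in AS podocytes (SD, n = 3). The Sfrp-related Frzb, at 1.01 CPM per kilobase in WT and 0.605 in AS podocytes, is not in this sum or in the shares below. The make-up changed with the sum. In WT podocytes Sfrp2, Sfrp4 and Sfrp1 held 42.8% ± 9.67, 31.0% ± 7.22 and 26.2% ± 3.33. In AS podocytes Sfrp2 held 90.7% ± 0.876, Sfrp1 8.81% ± 0.820 and Sfrp4 0.477% ± 0.215. Sfrp5 had 1 count in WT and 2 in AS podocytes and was not tested.

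**Figure D3:**
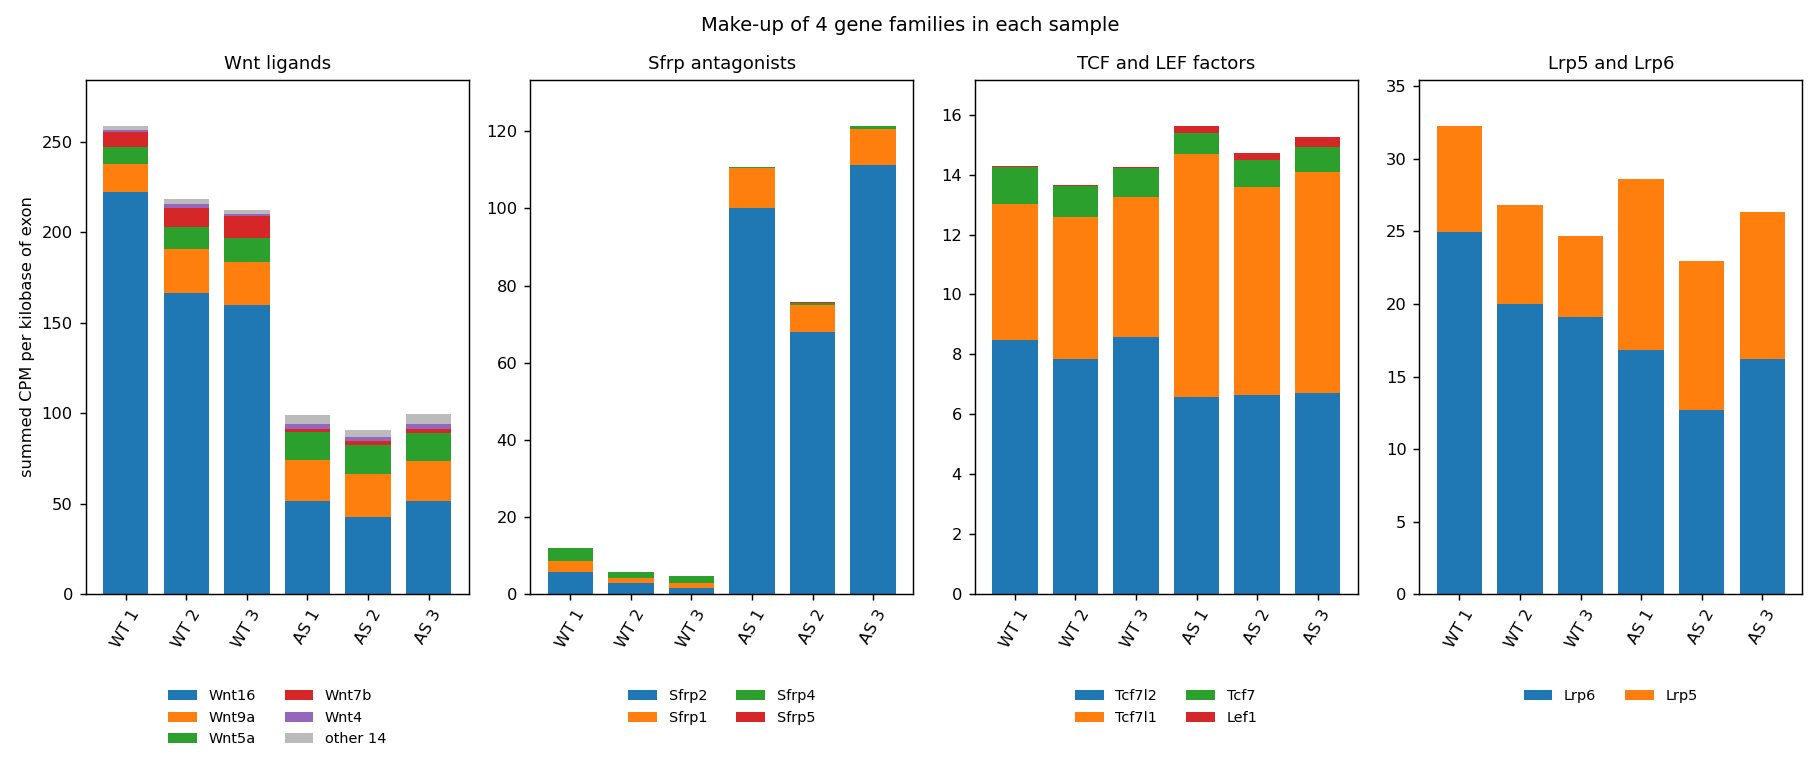
Summed CPM per kilobase of exon (each panel on its own linear axis from 0) of the Wnt ligands, Sfrp antagonists, TCF and LEF factors, and Lrp5 with Lrp6, in the 3 WT and 3 AS samples, with each gene as a segment. The ligand sum was 230 in WT and 96.4 in AS podocytes, and the Sfrp sum, without Frzb, was 7.51 and 103. The TCF and LEF sum was 14.1 and 15.2, with Tcf7l1 at 33.1% and 49.2% of it.

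Dkk2, which binds Lrp5 and Lrp6 and can block or weakly activate them, read 2.47, 2.76 and 4.38 CPM in the WT samples and 5.97, 5.88 and 7.30 CPM in the AS samples. All AS samples were above all WT samples. Dkk2 was 2.00-fold higher (log2 fold change 1.00 ± 0.22 SE, edgeR adjusted p = 0.00557). Dkk3, a family member that does not bind Lrp6 in the way Dkk1 does, was the most abundant Wnt gene per length, at 382 CPM per kilobase in WT and 343 in AS podocytes. It read 1462, 1195 and 1191 CPM in the WT samples and 1205, 1144 and 1110 CPM in the AS samples, and was not called (log2 fold change -0.15 ± 0.09 SE, edgeR adjusted p = 0.206). Dkk1, the classical inhibitor of Lrp6, had 8, 1 and 2 counts in the WT samples and 0 in the AS samples, too few to be tested. Most of these counts were in WT replicate 1, and 0 counts still allow a level of up to 0.0198 CPM in AS podocytes (3 counts over the line, counting error only). Wif1, a secreted protein that binds Wnt ligands, had 19 and 40 counts and was not called.

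R-spondin 2 was the R-spondin that rose and the only one with enough counts to be tested. Rspo2, which keeps Frizzled proteins at the surface by clearing the ligases Rnf43 and Znrf3, read 19.9, 13.0 and 12.5 CPM in the WT samples and 107, 78.1 and 113 CPM in the AS samples. The lines did not overlap. Rspo2 was 6.56-fold higher (log2 fold change 2.71 ± 0.20 SE, edgeR adjusted p = 7.25e-06). Rspo1 had 13 and 2 counts and Rspo3 8 and 2 counts in WT and AS podocytes. Lgr4, the more abundant of Lgr4 and Lgr5 per length, read 454, 264 and 277 CPM in the WT samples and 317, 258 and 307 CPM in the AS samples. The lines overlapped, WT replicate 1 was the highest of all, and Lgr4 was not called (log2 fold change -0.18 ± 0.18 SE, edgeR adjusted p = 0.490). Its log2 fold change was 0.12 without WT replicate 1 (adjusted p = 0.288). Lgr5, a stem cell marker in gut and other tissues, had 55 and 37 counts and was not called.

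Among the co-receptors, Lrp5 and Ryk rose and Lrp6 fell, while Ror2 was counted almost only in AS podocytes. Lrp5 and Lrp6 are the co-receptors of the beta-catenin branch. Lrp5 read 70.7, 66.2 and 54.1 CPM in the WT samples and 114, 101 and 98.8 CPM in the AS samples. Lrp6 read 341, 274 and 261 CPM in the WT samples and 230, 173 and 221 CPM in the AS samples. Neither gene overlapped between the lines, and the 2 genes went in opposite directions. Lrp5 was 1.64-fold higher (log2 fold change 0.72 ± 0.10 SE, edgeR adjusted p = 0.000437). Lrp6 was 1.40-fold lower (log2 fold change -0.49 ± 0.13 SE, edgeR adjusted p = 0.0122). Genes of chromosome 6, where Lrp6 lies, lay 0.22 below the median of all genes, and with the chromosome median removed the log2 fold change was -0.27 (adjusted p = 0.127). Per kilobase of exon, Lrp5 held 23.5% ± 1.63 of the sum of both in WT and 41.5% ± 3.20 in AS podocytes, and the sum was 27.9 ± 3.91 and 26.0 ± 2.82 CPM (SD, n = 3).

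Ror2 and Ror1 are receptor tyrosine kinases for Wnt5a. Ror2 had 12 counts in WT and 158 in AS podocytes, with means of 0.0862 ± 0.0779 and 1.04 ± 0.0284 CPM (SD, n = 3). The fitted value was 12.1-fold higher (log2 fold change 3.59 ± 0.61 SE), and it was 7.94-fold without WT replicate 1 and 19.3-fold without WT replicate 3. All WT samples lay under the level of the filter, so the gene was tested only because it is high in AS podocytes. Ror1 was expressed at 20.4 ± 5.19 and 21.5 ± 1.80 CPM (SD, n = 3) and was not called. Without WT replicate 1 it was called higher (log2 fold change 0.30, edgeR adjusted p = 0.0215). Ryk, a Wnt5a receptor with an inactive kinase domain, read 218, 201 and 199 CPM in the WT samples and 249, 234 and 233 CPM in the AS samples. The AS samples were above the WT samples by a small margin. Ryk was 1.16-fold higher (log2 fold change 0.21 ± 0.06 SE, edgeR adjusted p = 0.0198), and it lost the call without WT replicate 2, WT replicate 3 or AS replicate 1 (adjusted p from 0.0730 to 0.0924).

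Inside the cell, the TCF/LEF factors and beta-catenin did not move together. Lef1, Tcf7l1 and Axin2 rose, Ctnnb1 and Tcf7l2 fell, and Tcf7 and Axin1 were not called. Ctnnb1, which encodes beta-catenin, read 830, 834 and 837 CPM in the WT samples and 691, 666 and 646 CPM in the AS samples. The WT samples lay within a few CPM of each other, the tightest of the Wnt genes, and the AS samples were all below them. Ctnnb1 was 1.25-fold lower (log2 fold change -0.32 ± 0.06 SE, edgeR adjusted p = 0.00207). Ulk4 overlaps 759 bases of its exons on the opposite strand and had 1555 and 932 counts, against 119757 and 100891 on Ctnnb1.

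Axin2, a scaffold of the destruction complex and a widely used target gene of beta-catenin, read 9.35, 14.3 and 14.2 CPM in the WT samples and 18.8, 22.0 and 25.2 CPM in the AS samples. The lines did not overlap. Axin2 was 1.75-fold higher (log2 fold change 0.80 ± 0.17 SE, edgeR adjusted p = 0.00425). Lef1, which is both a partner and a target of beta-catenin, read 0.296, 0.235 and 0.325 CPM in the WT samples and 2.02, 1.95 and 2.91 CPM in the AS samples. All AS samples were far above all WT samples, on a low level of 41 and 351 counts. Lef1 was 7.98-fold higher (log2 fold change 3.00 ± 0.29 SE, edgeR adjusted p = 5.29e-05). The antisense RNA Gm43352, which overlaps 1208 bases of its exons, had 0 and 14 counts.

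Tcf7l1, a TCF factor that acts mostly as a repressor, read 17.8, 18.5 and 18.3 CPM in the WT samples and 31.7, 27.3 and 29.0 CPM in the AS samples. Tcf7l2, the TCF factor of the intestinal crypt, read 74.5, 68.9 and 75.3 CPM in the WT samples and 57.8, 58.3 and 58.9 CPM in the AS samples. In neither gene did the lines overlap. Tcf7l1 was 1.61-fold higher (log2 fold change 0.69 ± 0.08 SE, edgeR adjusted p = 0.000107). Tcf7l2 was 1.25-fold lower (log2 fold change -0.32 ± 0.06 SE, edgeR adjusted p = 0.00166). Tcf7 had 2.82 ± 0.333 and 2.13 ± 0.276 CPM (SD, n = 3), with the AS samples below the WT samples but no call (edgeR adjusted p = 0.114). Per kilobase of exon, Tcf7l2 held 59.1% ± 1.35 of the TCF and LEF sum in WT and 43.8% ± 1.48 in AS podocytes, and Tcf7l1 33.1% ± 1.46 and 49.2% ± 2.41. Lef1 held 0.230% ± 0.0320 and 1.72% ± 0.394, and Tcf7 7.64% ± 0.846 and 5.35% ± 0.847. The first and second places in this family were thus exchanged between the lines.

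The median spread between samples was larger in the WT line, which includes the outlying WT replicate 1. Over all genes, WT replicates 2 and 3 lay closer together (chi-square per degree of freedom 9.73) than any AS pair (18.6 to 22.2). The part of WT replicate 1 in the spread of the Wnt genes was not tested. Over the 36 tested Wnt genes with a mean of at least 1 CPM, the median coefficient of variation was 17.7% in WT and 10.7% in AS podocytes. In WT podocytes it ran from 0.418% (Ctnnb1) to 64.9% (Sfrp2), and in AS podocytes from 0.965% (Tcf7l2) to 33.1% (Wnt10a).

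The other genes of the pathway, 106 genes in 9 lists, were called in equal numbers in each direction. Of 95 tested, 22 rose and 22 fell, or 23.2% each and 46.3% in all, where 40.1% of all genes tested were called, and their median log2 fold change was 0.03. In 51 there was no call, 7 had too few counts to be tested and 4 had no count. With a fold change over 2 in addition, 2 were higher and 8 were lower. Over all genes tested 11.2% passed, 747 as higher and 1071 as lower.

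**Figure D4:**
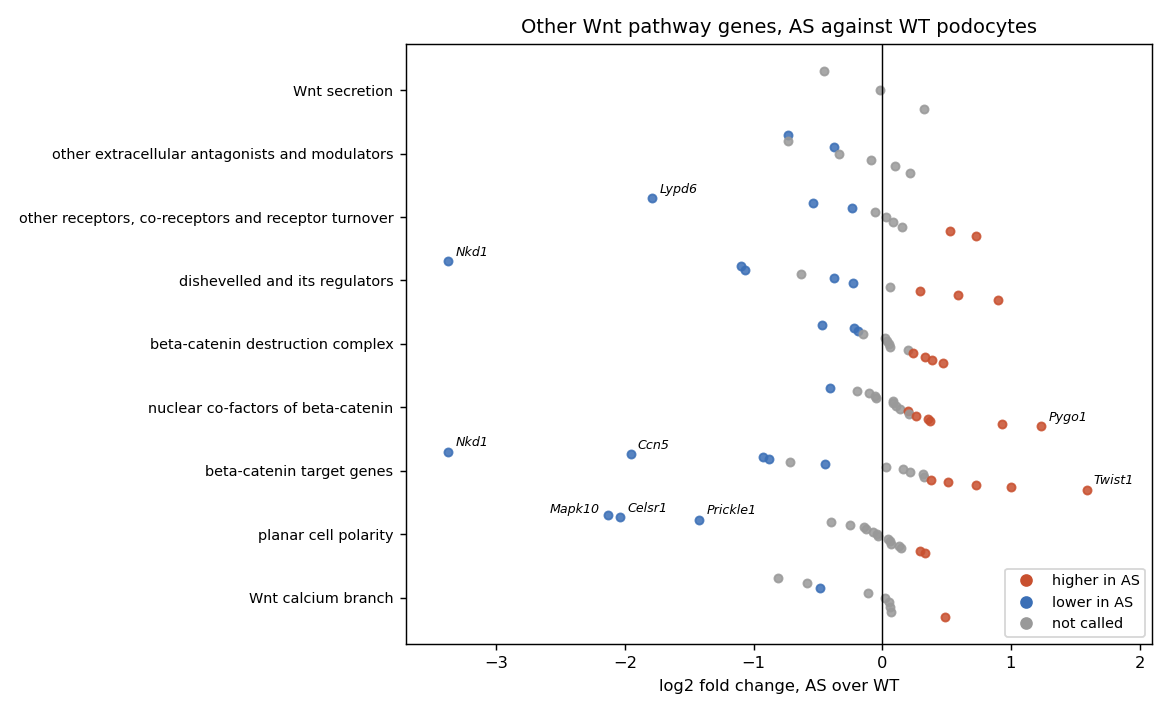
Log2 fold change (AS over WT) of each tested gene of 9 lists of other Wnt pathway genes, with 22 genes called higher (red), 22 lower (blue), 51 not called (grey) and 5 genes standing in 2 lists. Nkd1, at -3.37, lay farthest to the left and Twist1, at 1.59, farthest to the right.

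The genes for making and releasing Wnt ligands were not called. Wls, which carries Wnt proteins to the surface, had 1033 ± 24.2 CPM in WT against 1022 ± 42.0 CPM in AS podocytes (SD, n = 3). Porcn, the enzyme that adds the lipid, had a log2 fold change of -0.45 (edgeR adjusted p = 0.105), and Notum, a secreted enzyme that removes it, 0.32 (adjusted p = 0.593). Of these 3 genes 0 were called by edgeR's quasi-likelihood test, DESeq2 or limma-voom, and 0 had an unadjusted p under 0.05. Of 7 other extracellular modulators tested, 2 fell (28.6%, where 19.6% of all genes tested did): the Sfrp-related Frzb (log2 fold change -0.73) and Tpbg, a surface inhibitor of Wnt signalling (-0.38).

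Of 9 other receptors and turnover genes tested, 2 rose and 3 fell, with 4 not called. In all 55.6% were called, where 40.1% of all genes tested were. Rnf43, a ligase that removes Frizzled proteins and a target of beta-catenin, rose from 7.06 ± 1.04 to 11.7 ± 1.09 CPM (SD, n = 3), with a log2 fold change of 0.73 ± 0.13 SE (edgeR adjusted p = 0.00216). Its relative Znrf3 had 22.5 ± 4.41 and 22.9 ± 0.936 CPM and was not called. Ptk7, a planar cell polarity receptor, rose (log2 fold change 0.53). Reck, which presents Wnt7 ligands to their receptor, fell (-0.54), as did Lypd6, an enhancer of Lrp6 signalling (-1.79), and the glypican Gpc4 (-0.23).

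Dishevelled proteins relay the signal from Frizzled receptors, and of 10 genes tested for them and their regulators 3 rose and 5 fell, where 20.4% of all genes tested were higher and 19.6% lower. Nkd1, which binds dishevelled as a feedback inhibitor and is a target of beta-catenin, went against Axin2. It fell from 11.9 ± 3.90 to 1.16 ± 0.398 CPM (SD, n = 3; log2 fold change -3.37 ± 0.30 SE, edgeR adjusted p = 2.53e-05). The dishevelled antagonists Dact3 (log2 fold change -1.07) and Cxxc4 (-1.10) fell with Dvl1 (-0.37) and Cxxc5 (-0.23). Dvl2 (0.29), Dact1 (0.90) and Dact2 (0.59) rose.

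In the list for the beta-catenin destruction complex and related enzymes, 4 of 13 genes tested rose and 3 fell. All of these changed by less than a log2 fold change of 0.5. In all 53.8% were called, where 40.1% of all genes tested were. Csnk1g1 (0.33), the Apc-binding Amer1 (0.48) and the tankyrase Tnks (0.38), which marks Axin for degradation, rose with Tnks2, while Apc2 (-0.47) fell with Gsk3a and Csnk1a1. Apc itself was not called. Of 16 nuclear co-factors, 6 rose and 1 fell (37.5% and 6.25%, where 20.4% and 19.6% of all genes did). Pygo1, a part of the beta-catenin activator complex, rose from 9.72 ± 0.745 to 22.9 ± 1.69 CPM (SD, n = 3), and the co-repressor Tle2 rose too (log2 fold change 0.93). Ctbp1, also a co-repressor, rose (0.37), and Jup, the desmosomal relative of beta-catenin, fell (-0.41).

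Known target genes of beta-catenin outside the Wnt genes given above went both ways. Of 16 tested, 5 rose and 5 fell (31.3% each, where 20.4% and 19.6% of all genes did). The targets Axin2 and Lef1, which both rose, belong to the Wnt genes and are not in these counts. Twist1 and Snai2 are transcription factors of mesenchymal cells. Twist1 rose from 7.85 ± 0.431 to 23.6 ± 0.869 CPM and Snai2 from 11.1 ± 2.37 to 22.1 ± 1.39 CPM (SD, n = 3). Sp5 rose (log2 fold change 0.38, edgeR adjusted p = 0.0376), as did Myc and the Rnf43 given above. Ccn5, a secreted matrix protein, fell from 316 ± 28.6 to 81.5 ± 2.78 CPM (SD, n = 3; log2 fold change -1.95 ± 0.07 SE, edgeR adjusted p = 1.13e-07). Cd44, Tnfrsf19 and Bambi fell together with Nkd1. Many of these genes respond to other signals as well.

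In the lists for the branches that do not need beta-catenin, 5 of 17 and 2 of 9 genes tested were called (29.4% and 22.2%). Of all genes tested 40.1% were called, and with so few genes these shares are no result about the branches. The lists leave out, among others given above, Wnt5a, Ryk, Fzd3, Fzd6 and Ptk7, which were called, and Ror1, which was not. Ryk and Fzd6 lost the call under some alternatives. Ror2, also left out, had to differ. Of 17 planar cell polarity genes, 2 rose and 3 fell. Celsr1, an adhesion receptor of that pathway, fell from 9.89 ± 4.57 to 2.42 ± 0.933 CPM and Prickle1, a cytoplasmic protein of the same pathway, from 5.11 ± 1.47 to 1.92 ± 0.590 CPM (SD, n = 3). Mapk10, a Jun kinase, fell (log2 fold change -2.13), and Vangl1 (0.29) and Scrib (0.33) rose. Of 9 genes of the calcium branch tested, the kinase Nlk fell (-0.48) and the phospholipase Plcb3 rose (0.49).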

How the data were processed

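Both cell lines were profiled by RNA-seq of mRNA libraries (15 cycles of PCR). The deposited table holds, per gene and sample, the raw count of reads the authors assigned, without normalization. Per the submitters' processing notes, FastQC, Trim Galore, STAR and edgeR were used with build mm39, with no versions. For the counting tool, annotation release and strand setting, the sources used here give no name. Of 57132 identifiers, 51880 matched GENCODE M21 (GRCm38) without the version, and those without a match held 0.363% of the counts. M21 therefore gave names, gene type, chromosome and exon length only, and promoters came from RefSeq (GRCm38.p6).

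The analysis used edgeR 4.0.16 in R 4.3.3. After filterByExpr at its defaults (minimum count 10, total 15), 16263 genes were scaled by TMM and tested, two-sided, by quasi-likelihood with a single genotype term and Benjamini-Hochberg adjustment. SE was approximated from the log2 fold change and the F statistic. The script was tested on simulated data. Library totals ran from 45417221 to 54290968 counts. Overlap of samples is a description, since 3 against 3 samples cannot give an exact permutation p below 0.10. Limits of detection cover counting error only.

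The Wnt genes and all lists were chosen with earlier results of these data known. Values per sample are given for Wnt genes with an adjusted p under 0.05 and a mean of at least 1 CPM and for the most abundant per length of each class. Other pathway genes named are up to 4 called per list with the smallest adjusted p, plus Nkd1, Notum, Rnf43, Znrf3 and Sp5. Further names complete a count or were chosen after their values were seen. Alternatives were DESeq2 1.42.0, limma-voom (limma 3.58.1, the study's own method), other scalings and filters, a replicate block, removal of each chromosome's median, a fold change over 2 and each sample left out. With 3 samples a group, no test of single outlying samples was made. Some marker genes are not reported here by name.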

Additional observations from a re-analysis of the deposited data

How the results depend on the processing

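Over the 44 tested Wnt genes and 14 alternatives, 571 of 608 log2 fold changes kept their direction and side of the threshold. Of the 27 called genes, 22 kept both in every alternative run for them (13 for Wnt10b and Ror2, which a mean of at least 1 CPM leaves out). Wnt11, Fzd7, Fzd6, Lrp6 and Ryk did not. Wnt10b and Ror2 are among the 22, but both had to differ, so their kept calls are no sign of stability. A fold change over 2 left 7 Wnt genes higher (Ror2 among them) and 5 lower (Wnt10b among them), and 2 and 8 other pathway genes, by its own construction. With a sample left out, the Wnt counts ran from 15 to 19 higher and 8 to 11 lower, and those of other pathway genes from 17 to 27 and 18 to 23. Removing the chromosome median turned Fzd6 (-0.0127) and Fzd8 (0.0053), and the cause was not tested. Uncalled genes near 0 turned when samples were left out, with log2 fold changes from -0.0802 to 0.215 in Wnt9a, -0.78 to 0.17 in Wnt3, -0.13 to 0.16 in Fzd5, -0.32 to 0.12 in Lgr4 and -0.0332 to 0.303 in Ror1. Samples with the same number share only a number (correlations of their deviations 0.147, 0.0939 and 0.0526), and the replicate block gave 18 higher and 9 lower Wnt genes and 25 and 23 other pathway genes. Depth limits the 10 Wnt genes that were counted but not tested.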
